A study of Mus musculus with 6 samples.

Results

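The replication-dependent histone cluster genes were taken as all protein-coding genes whose GENCODE M21 symbol begins with Hist1h, Hist2h, Hist3h or Hist4. The rule found 67 genes of 53458 with values in the tables, made up of 6 H1, 18 H2A, 18 H2B, 12 H3 and 13 H4 genes. Of these, 54 lie in the Hist1 cluster on mouse chromosome 13, 10 in the Hist2 cluster on chromosome 3, 2 in Hist3 on chromosome 11 and 1, Hist4h4, on chromosome 6 (GRCm38). RNA was sequenced from leukemic blasts of mice on a C57/BL6 background with acute myeloid leukemia (AML), in 3 libraries labelled Asxl1 G643W on both alleles and 3 labelled Asxl1 WT. All 6 libraries carry the label Cebpa-/p30, so the G643W and WT libraries share the loss of full-length C/EBPα and the short p30 form. Blasts were sorted from bone marrow as CD45.2+ cells that were Mac1 low and Gr1 low and lacked Ter119, B220 and CD3. The labels do not say which libraries come from separate mice or primary leukemias, so the p-values speak only for variation among these 6 libraries, some of it perhaps technical. No age is given, and the deposited tables hold no base calls, so the G643W change itself was not checked.

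Replication-dependent histones package newly copied DNA. H2A, H2B, H3 and H4 form the core of the nucleosome, and H1 binds the DNA between nucleosomes. Their genes sit in clusters and are transcribed in S phase, and their mRNAs end not in a poly(A) tail but in a short stem-loop bound by the stem-loop binding protein SLBP. Transcripts of these genes that run on past the stem-loop and gain a poly(A) tail are known from differentiated cells. Asxl1 is a chromatin regulator whose partner, the deubiquitinase Bap1, removes ubiquitin from histone H2A, itself one of the products of these genes.

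The stem-loop is shown first, because the end of a transcript relative to it is used below to split the measured transcripts. A script searched the spliced GENCODE M21 transcripts, on the transcribed strand, for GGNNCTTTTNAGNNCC, where N is any base. It found a match in 44 of the 67 genes (65.7%), against 52 of 58725 other protein-coding transcripts (0.0885%). The windows below are from GRCm38, written 5′ to 3′ as DNA, with the stem-loop in capitals and its flanks in lower case, for 2 or 3 genes of each class.
Hist1h1c (chr13:23739507-23739532, plus strand): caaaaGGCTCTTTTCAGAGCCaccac
Hist1h1e (chr13:23621777-23621802, minus strand): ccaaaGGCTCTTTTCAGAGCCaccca
Hist1h2ac (chr13:23683472-23683497, minus strand): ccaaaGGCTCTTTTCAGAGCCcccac
Hist2h2ac (chr3:96220413-96220438, minus strand): aaaaaGGCTCTTTTTAGAGCCaccaa
Hist1h2bg (chr13:23571838-23571863, plus strand): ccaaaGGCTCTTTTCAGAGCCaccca
Hist1h2bk (chr13:22036295-22036320, plus strand): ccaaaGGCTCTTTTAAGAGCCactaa
Hist1h3a (chr13:23761885-23761910, minus strand): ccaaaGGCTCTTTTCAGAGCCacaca
Hist1h3e (chr13:23561898-23561923, minus strand): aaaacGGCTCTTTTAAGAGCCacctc
Hist1h4b (chr13:23757361-23757386, plus strand): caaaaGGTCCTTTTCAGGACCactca
Hist1h4c (chr13:23698084-23698109, minus strand): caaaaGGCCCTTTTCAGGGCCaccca
Hist1h4i (chr13:22040961-22040986, minus strand): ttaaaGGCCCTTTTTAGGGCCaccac
The first stem bases set the H4 transcripts apart from those of the other classes, which shared theirs. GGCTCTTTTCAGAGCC stood in 28 of 74 annotated transcripts and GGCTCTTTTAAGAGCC in 6, none of them from H4 genes. H4 transcripts carried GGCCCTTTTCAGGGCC (7), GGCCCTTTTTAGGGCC (2) or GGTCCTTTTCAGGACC (2) instead. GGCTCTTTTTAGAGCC was found in a single transcript, that of Hist2h2ac. Of the 28 transcripts without a match, 14 are annotated at under 420 bases, about the length of a core histone's coding part, so the annotation may stop before the stem-loop.

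The promoter windows are shown because histone genes of a class are known to share promoter elements. RefSeq promoter windows (GRCm38.p6) matched 62 of the 67 genes by gene ID, and Hist1h2bc, Hist1h3a, Hist1h3f, Hist2h2be and Hist2h4 were not matched. In the 250 bases before the start, both strands were searched for the CCAAT box, the TATA element TATAAA and the octamer ATTTGCAT. The H1 box AAACACA and a single spelling of the E2F sequence, TTTGGCGC, were searched in the same way. None of these is contained in another. In the 3 windows below, from an H1, an H2A and an H4 gene, capitals mark the matches on either strand.
Hist1h1b (chr13:21780626-21780875, minus strand): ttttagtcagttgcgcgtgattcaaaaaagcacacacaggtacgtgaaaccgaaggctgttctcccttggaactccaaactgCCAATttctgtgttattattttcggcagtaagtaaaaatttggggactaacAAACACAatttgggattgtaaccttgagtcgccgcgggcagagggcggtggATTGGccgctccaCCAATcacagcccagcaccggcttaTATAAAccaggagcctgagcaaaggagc
Hist1h2ac (chr13:23683960-23684209, minus strand): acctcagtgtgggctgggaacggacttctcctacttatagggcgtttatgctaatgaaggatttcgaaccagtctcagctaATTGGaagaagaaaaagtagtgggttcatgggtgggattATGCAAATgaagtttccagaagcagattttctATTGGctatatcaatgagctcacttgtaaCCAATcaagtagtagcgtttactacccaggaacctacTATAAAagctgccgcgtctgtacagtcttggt
Hist1h4c (chr13:23698459-23698708, minus strand): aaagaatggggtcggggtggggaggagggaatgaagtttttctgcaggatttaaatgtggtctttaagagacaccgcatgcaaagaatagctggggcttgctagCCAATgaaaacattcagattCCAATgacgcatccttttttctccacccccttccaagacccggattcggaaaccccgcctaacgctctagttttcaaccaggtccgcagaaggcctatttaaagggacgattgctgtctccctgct
CCAAT was in the windows of all 6 H1, all 18 H2A and all 16 matched H2B genes, in 8 of 10 H3 genes and in 3 of 12 H4 genes, which is 82.3% of the matched cluster genes against 34.4% of 26963 other genes. TATAAA was in 46.8% of the cluster genes against 12.9% of the others. The octamer was in 7 of 18 H2A and 6 of 16 H2B windows, in 0 windows of the H1, H3 and H4 genes, and in 1.57% of other genes. Many H2A and H2B windows overlap, because such genes lie in pairs with starts 176 to 306 bases apart. A site there can count for both genes. The H1 box was in 5 of 6 H1 windows, and in 14.5% of all cluster genes against 6.20% of other genes. TTTGGCGC was in 0 of 62 windows and in 0.438% of other genes. Other spellings of the E2F sequence were not searched, so this count does not show that the windows lack E2F sites. These are matches of letters and say nothing of which factor is bound in the blasts.

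Most cluster histone genes had higher levels in the G643W libraries than in the WT libraries, but none passed the main test. Of the 63 genes with enough reads to be tested, 50 had a positive log2 difference (79.4%), against 49.2% of the 20654 genes tested in all. The median log2 difference, G643W over WT, was 0.54 for the cluster genes and -0.01 for all tested genes. In read shares (CPM, each gene's reads scaled by TMM to a common library size), all G643W libraries lay above all WT libraries for 26 of the 63 genes and below them for 0, against 7.05% higher and 8.89% lower among all tested genes. In TPM, a level per transcript length within each library, 30 of the 63 genes were so separated, all higher, against 9.61% higher and 5.84% lower among all tested genes. With edgeR's quasi-likelihood test, 0 cluster genes passed an adjusted p of 0.05 (Benjamini-Hochberg over all genes; lowest adjusted p = 0.454, for Hist1h1e), against 0.121% of all tested genes. At an unadjusted p under 0.05 there were 13 cluster genes, all higher in G643W, where 3.89% of all tested genes were higher at that level. DESeq2 called 3 cluster genes higher in G643W, Hist1h1e (adjusted p = 0.0109), Hist1h1b (adjusted p = 0.0180) and Hist1h2bn (adjusted p = 0.0469), where its share over all tested genes was 0.794% higher. Since 4 genes did not pass the low count filter (Hist1h2aa, Hist1h2ba, Hist2h3c1 and Hist1h4m), the counts cover 63 of the 67. Of these, Hist2h3c1 had 302 estimated reads in G643W library 3 and 0 in every other library.

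**Figure D1:**
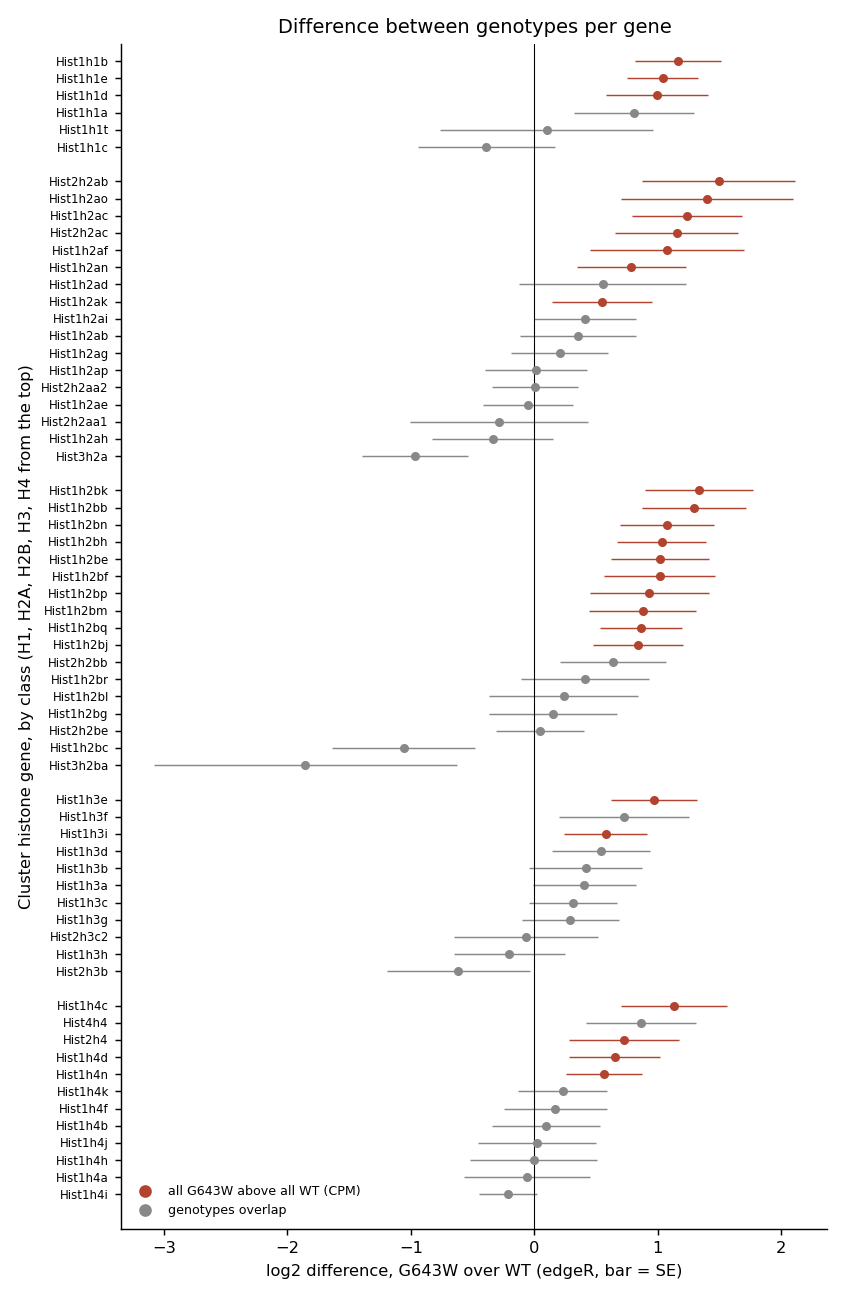
The log2 difference between G643W and WT with its standard error is plotted for each of the 63 tested cluster histone genes, ordered by class and by size within a class. Red points are the 26 genes whose G643W libraries all lay above all WT libraries in CPM, grey points overlap, and 50 of the 63 points lie right of 0.

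The library totals ranged from 61167075 to 101189225 estimated reads, and the cluster genes together took 0.0508%, 0.0393% and 0.0445% of the reads in G643W libraries 1 to 3, against 0.0711%, 0.0295% and 0.0306% in WT libraries 1 to 3. WT library 1 stood apart: Hist1h1c, Hist1h2bc and Hist1h2bg held 61.0% of its cluster histone reads, against 32.6% to 37.6% in the other 5 libraries. It was more than 2 times above both other WT libraries for 9 of the 63 genes (14.3%), against 9.11% of all tested genes. WT library 2 had the lowest CPM of the 6 libraries for 29 of the 63 genes, and G643W library 1 had the highest for 27. Summed levels of neutrophil markers also differed widely, at 16164, 184916 and 114329 TPM in G643W libraries 1 to 3 and 2678, 13503 and 78689.5 TPM in WT libraries 1 to 3, although the sort kept Gr1 low cells. Blast and progenitor markers summed to 5812, 756 and 2356 TPM in G643W libraries 1 to 3 and to 1079, 2674 and 4091 TPM in WT libraries 1 to 3. Both marker sums overlapped between the genotypes, but all 12 neutrophil markers had positive log2 differences, with a median of 1.73. Of all tested genes 49.2% were positive. In CPM 0 of the 12 were without overlap, against 7.05% higher and 8.89% lower among all tested genes. Of the 8 blast and progenitor markers 5 were positive and 3 negative. Cd34, a marker of immature blood cells named after its values were seen, was the only 1 of the 8 lower without overlap in CPM, at -1.89. The part of these cells in the cluster histone levels was not tested. In bulk RNA, fewer cells that copy their DNA and less histone mRNA per cell cannot be told apart.

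H3 was the class whose summed level separated the genotypes. H3 genes together reached 49.4, 34.6 and 40.1 TPM in G643W libraries 1 to 3, against 29.2, 24.7 and 31.8 TPM in WT libraries 1 to 3. The lowest G643W library stood above the highest WT library, and the mean was 41.4 ± 7.44 TPM in G643W and 28.6 ± 3.59 TPM in WT (SD, n = 3 each), a ratio of 1.45. In CPM the H3 sums did not overlap either, at 39.1, 29.8 and 35.4 in G643W and 24.3, 22.4 and 27.2 in WT. Hist2h3c1 gave 1.58 TPM and 4.07 CPM of the sums of G643W library 3, and 0 in every other library. Summed levels of the other classes overlapped. H4 summed to 108, 78.8 and 96.4 TPM in G643W and 82.2, 61.6 and 81.5 TPM in WT. H2A summed to 92.0, 84.2 and 79.0 TPM in G643W and 81.7, 46.7 and 61.4 TPM in WT, where WT library 1 reached into the G643W range. H2B summed to 152, 109 and 123 TPM in G643W and 161, 63.1 and 75.5 TPM in WT, and WT library 1 was the highest of all 6. H1 summed to 47.4, 50.4 and 51.6 TPM in G643W and 95.7, 25.4 and 30.8 TPM in WT, with a ratio of means of 0.983, which became 1.77 without WT library 1. These sums were compared without a test. All 67 genes together summed to 449, 356 and 390 TPM in G643W and 450, 222 and 281 TPM in WT. In CPM they summed to 455, 447 and 461 in G643W and 679, 292 and 309 in WT. Their ratio of means was 1.26 in TPM and 1.06 in CPM. Ratios were also smaller in CPM than in TPM for H2A (1.16 against 1.34), H2B (1.09 against 1.28) and H4 (1.15 against 1.26).

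**Figure D2:**
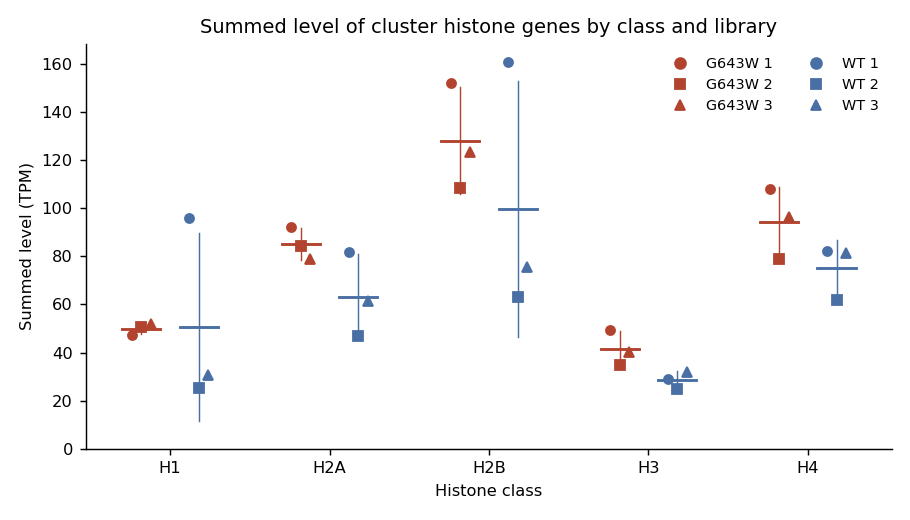
Summed TPM of the cluster histone genes is plotted by histone class, with 1 point per library, a horizontal bar at the mean and a vertical line for ± 1 SD (n = 3). The H3 points of G643W (34.6 to 49.4 TPM) lie above those of WT (24.7 to 31.8 TPM), while WT library 1 is the highest point for H1 and H2B.

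Among the H3 genes, which encode the histone whose tail carries many of the methyl and acetyl marks of chromatin, 8 of 11 tested had positive differences with a median of 0.41, where 49.2% of all tested genes were positive. Of the 11, 2 (18.2%) were higher without overlap in CPM, against 7.05% of all tested genes. Hist1h3i (chr13:21782960-21783370, minus strand), the H3 gene of highest level, was at 11.4, 8.68 and 10.1 TPM in G643W libraries 1 to 3 and at 6.47, 5.51 and 6.32 TPM in WT libraries 1 to 3. Hist1h3e (chr13:23561534-23562369, minus strand) was at 4.75, 4.65 and 6.31 TPM in G643W and at 2.54, 1.87 and 2.93 TPM in WT. For both, each G643W library exceeded each WT library. The log2 difference was 0.58 ± 0.34 (SE) for Hist1h3i, with an edgeR adjusted p = 0.566, and 0.97 ± 0.35 for Hist1h3e, with an edgeR adjusted p = 0.493, the lowest p of the class. Hist1h3a (chr13:23761853-23762386, minus strand) was at 7.46, 4.28 and 4.34 TPM in G643W and at 4.63, 2.58 and 3.87 TPM in WT. Hist1h3c (chr13:23744973-23745602, minus strand) was at 6.05, 4.57 and 4.06 TPM in G643W and at 3.599, 3.43 and 3.80 TPM in WT. Hist1h3a overlapped between the genotypes, while Hist1h3c overlapped in CPM but not in TPM. Hist1h3i shares 93.2% of its 31-base words with other cluster genes and Hist1h3e 84.4%, so how reads were divided among the H3 copies is uncertain.

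The H4 genes, which encode identical or nearly identical copies of the core histone H4, had the smallest median difference of the classes, 0.20, with 9 of 12 positive and 4 (33.3%) higher without overlap in CPM, against 7.05% of all tested genes. The gene of highest level, Hist1h4i (chr13:22040636-22041362, minus strand), was at 27.6, 16.6 and 26.6 TPM in G643W libraries 1 to 3 and at 27.7, 21.5 and 26.5 TPM in WT libraries 1 to 3. Hist1h4k (chr13:21750194-21750505, minus strand) was at 27.9, 20.1 and 19.5 TPM in G643W and at 15.95, 15.3 and 19.9 TPM in WT. The genotypes overlapped for both, with log2 differences of -0.22 ± 0.23 for Hist1h4i and 0.23 ± 0.36 for Hist1h4k (SE). Hist1h4n (chr13:21831767-21832196, minus strand) was at 20.5, 19.8 and 21.9 TPM in G643W and at 13.5, 9.23 and 15.5 TPM in WT. Hist1h4c (chr13:23697635-23698454, minus strand) was at 4.35, 5.22 and 8.10 TPM in G643W and at 3.03, 1.57 and 3.02 TPM in WT. Neither overlapped, and the log2 differences were 0.57 ± 0.31 for Hist1h4n and 1.13 ± 0.43 for Hist1h4c (SE), with edgeR adjusted p = 0.554 for Hist1h4n and 0.498 for Hist1h4c. The short annotated transcript of Hist1h4k, 312 bases, was given an effective length of 77.7 to 89.1 bases in the tables, so its TPM rests on few usable positions. Its level in TPM can therefore not be set firmly against that of the longer H4 transcripts.

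Among the H2A genes, 13 of 17 had positive differences with a median of 0.41, and 7 (41.2%) were higher without overlap in CPM, against 7.05% of all tested genes. Hist2h2aa2 (chr3:96239749-96240276, minus strand) gave 25.2% to 39.9% of the H2A level and was at 23.2, 27.5 and 23.8 TPM in G643W libraries 1 to 3 and at 32.6, 16.5 and 17.2 TPM in WT libraries 1 to 3. Hist1h2ap (chr13:21833026-21833507, minus strand) was at 6.46, 8.08 and 5.35 TPM in G643W and at 6.397, 3.81 and 8.14 TPM in WT. Hist1h2ai (chr13:21716422-21716814, plus strand) was at 7.40, 5.27 and 4.06 TPM in G643W and at 3.89, 3.64 and 3.77 TPM in WT. Hist2h2aa2 and Hist1h2ap overlapped, with log2 differences of 0.01 ± 0.35 and 0.02 ± 0.42 (SE), and Hist1h2ai overlapped in CPM but not in TPM, with 0.41 ± 0.41. Hist1h2ac (chr13:23681467-23683948, minus strand) was at 5.23, 3.91 and 7.34 TPM in G643W and at 3.51, 1.02 and 2.15 TPM in WT. Hist2h2ab (chr3:96219865-96220308, plus strand) was at 3.70, 1.01 and 1.10 TPM in G643W and at 0.592, 0.670 and 0.548 TPM in WT. Both stood higher in every G643W library, at 1.23 ± 0.45 (edgeR adjusted p = 0.493) for Hist1h2ac, and at 1.49 ± 0.62 (edgeR adjusted p = 0.511) for Hist2h2ab, the largest log2 difference among cluster genes with a mean of at least 1 TPM. G643W library 1 was more than 2 times above the other G643W libraries for Hist2h2ab, which averaged 61.1 estimated reads in G643W and 21.8 in WT. Without G643W library 1 its difference was 0.75.

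Levels of single core histone genes are uncertain, because their copies share sequence. The median share of a gene's 31-base words that also occur in other cluster genes was 74.9% for H2A, 61.0% for H3, 52.6% for H2B, 47.9% for H4 and 3.04% for H1. Every word of Hist2h2aa2 occurs both in another cluster gene and in a gene outside the set. Many H2A genes also overlap a non-coding entry. The entry Gm44346 on the strand opposite Hist1h2an, for example, was given 377, 450 and 323 estimated reads in G643W libraries 1 to 3 and 282, 203 and 219 in WT libraries 1 to 3, and whether strand entered the authors' counting is not stated in the labels or headers. With the 13 overlapping non-coding entries added, the H2A sum was 109, 99.9 and 95.6 CPM in G643W and 111, 68.8 and 67.8 CPM in WT, still overlapping through WT library 1.

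H2B had the most separated genes. Of 17 tested, 15 had positive differences with a median of 0.86, where 49.2% of all tested genes were positive. Of the 17, 10 (58.8%) were higher without overlap in CPM, against 7.05% of all tested genes, and 6 (35.3%) had an unadjusted p under 0.05, against 3.89% of all tested genes that were higher at that level. The 2 genes of highest level were not among them. Hist1h2bg (chr13:23571396-23572013, plus strand) was at 45.7, 33.9 and 38.7 TPM in G643W libraries 1 to 3 and at 63.1, 12.5 and 24.5 TPM in WT libraries 1 to 3. Hist1h2bc (chr13:23684199-23692908, plus strand), whose annotated transcript is spliced and holds no stem-loop match, was at 16.6, 7.37 and 10.2 TPM in G643W and at 44.9, 11.2 and 11.1 TPM in WT. WT library 1 was the highest library for both, and the log2 differences were 0.15 ± 0.52 for Hist1h2bg and -1.06 ± 0.58 for Hist1h2bc (SE). Without WT library 1 the difference of Hist1h2bc was -0.12. Hist1h2bq (chr13:21806612-21810197, minus strand) was at 18.3, 13.3 and 15.0 TPM in G643W and at 12.5, 7.67 and 11.2 TPM in WT. Hist1h2bk (chr13:22035870-22036345, plus strand) was at 6.62, 6.38 and 6.26 TPM in G643W and at 1.85, 3.23 and 1.87 TPM in WT. For both, every G643W library exceeded every WT library, by 0.86 ± 0.33 (edgeR adjusted p = 0.501) for Hist1h2bq and 1.33 ± 0.44 (edgeR adjusted p = 0.488) for Hist1h2bk. A Hist1h2br transcript of 381 bases is not among the table's transcripts and is identical to one of Hist1h2bq, so reads of that sequence from either gene would have counted for Hist1h2bq. Hist3h2ba (chr11:58948920-58949533, plus strand) had the most negative log2 difference, -1.85 ± 1.23, and was at 1.58, 0.161 and 0.673 TPM in G643W and at 6.27, 1.38 and 0.202 TPM in WT, with wide overlap. Without WT library 1 its difference was -0.24. Beyond these, Hist1h2bb, Hist1h2bn, Hist1h2bh, Hist1h2be, Hist1h2bf, Hist1h2bp, Hist1h2bm and Hist1h2bj also lay higher in every G643W library, as the plot of log2 differences shows.

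In the H1 class a single gene carried most of the level. Hist1h1c (chr13:23738808-23740367, plus strand), a linker histone gene expressed in many tissues, gave 62.0% to 92.3% of the class level and was at 29.4, 37.9 and 39.3 TPM in G643W libraries 1 to 3 and at 88.4, 19.6 and 24.0 TPM in WT libraries 1 to 3. Its log2 difference was -0.39 ± 0.55 (SE), which became 0.58 without WT library 1. The other 5 H1 genes together were at 18.03, 12.5 and 12.4 TPM in G643W and at 7.35, 5.84 and 6.86 TPM in WT, without overlap and with a ratio of 2.14. Hist1h1b (chr13:21779883-21780625, minus strand) was at 6.52, 5.78 and 4.49 TPM in G643W and at 2.01, 2.42 and 2.50 TPM in WT. Hist1h1e (chr13:23620629-23622558, minus strand) was at 2.86, 3.03 and 3.03 TPM in G643W and at 1.49, 1.09 and 1.57 TPM in WT. Each G643W library lay above each WT library for both, at 1.16 ± 0.35 (edgeR adjusted p = 0.472) for Hist1h1b and 1.04 ± 0.29 (edgeR adjusted p = 0.454) for Hist1h1e. Reads of Hist1h1e and Hist1h2be cannot be fully told apart, because the genes overlap on the same strand. Hist1h1a (chr13:23763666-23764406, plus strand) was at 7.15, 2.19 and 3.10 TPM in G643W and at 2.42, 1.88 and 2.21 TPM in WT, an overlap with G643W library 1 more than 2 times above the rest of its group. The log2 difference of Hist1h1a was 0.81 ± 0.49 (SE), and 0.31 without G643W library 1. Hist1h1d, named after its values were seen, was at 1.30, 1.37 and 1.68 TPM in G643W and at 1.18, 0.444 and 0.480 TPM in WT, without overlap. Hist1h1t, a linker histone gene known from testis, stayed at or below 0.246 TPM in all 6 libraries.

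**Figure D3:**
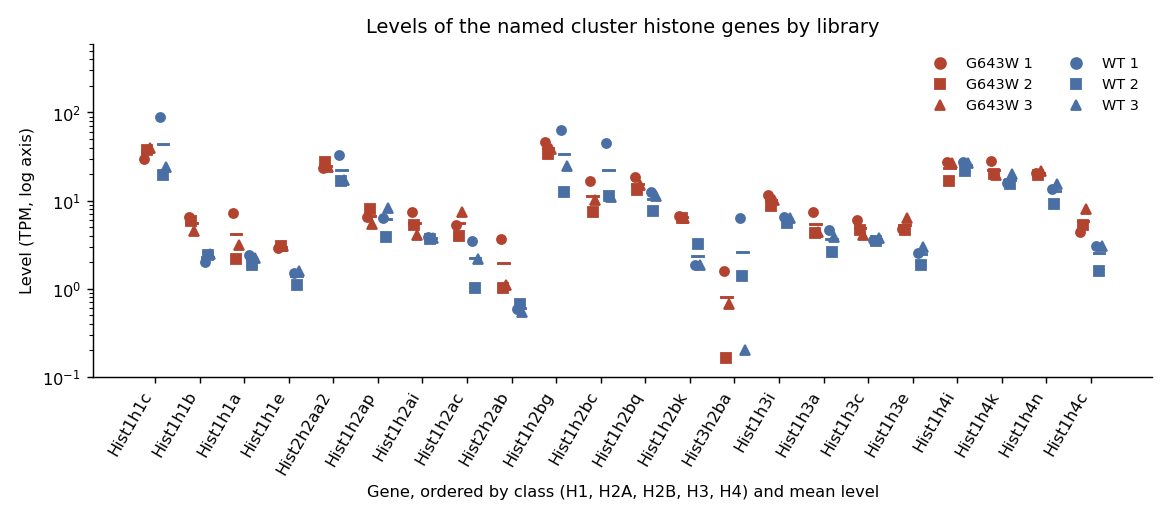
TPM of the cluster histone genes with the highest level, the lowest p or the most extreme difference is plotted on a log axis, with 1 point per library and a short bar at the mean of each genotype. Hist1h1b, Hist1h1e, Hist1h2bk and Hist1h4n show G643W points wholly above WT points, while for Hist1h1c, Hist1h2bg and Hist1h2bc the highest point is WT library 1.

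The transcripts were then split by their annotated end. In 9 of the 74 annotated transcripts the end lies within 30 bases of the stem-loop, 37 run further past it and 28 hold no match. Transcripts that end within 30 bases, among them those of Hist1h2bk and Hist1h4b shown above, summed to 52.8, 41.6 and 41.0 TPM in G643W libraries 1 to 3 and to 30.3, 22.8 and 28.2 TPM in WT libraries 1 to 3. The genotypes did not overlap, with means of 45.1 ± 6.64 TPM in G643W and 27.1 ± 3.90 TPM in WT (SD, n = 3 each) and a ratio of 1.67, or 1.61 in CPM. Transcripts that run further, such as those of Hist1h1c and Hist1h2bg, summed to 240, 207 and 237 TPM in G643W and to 298, 119 and 162 TPM in WT. Transcripts without a match summed to 156, 107 and 112 TPM in G643W and to 121, 79.4 and 91.2 TPM in WT. Both of these sums overlapped through WT library 1 alone, and WT libraries 2 and 3 lay below all G643W libraries in each. The separation by transcript end therefore rests on WT library 1. With the limit at 60 bases, 21 transcripts ended near the stem-loop and summed to 141, 120 and 121 TPM in G643W and to 107, 64.1 and 84.9 TPM in WT, again without overlap, at a ratio of 1.49. The labels do not say whether poly(A) RNA was selected, and the difference between the 3 ratios was not tested. An annotated end does not show where the sequenced molecules ended.

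**Figure D4:**
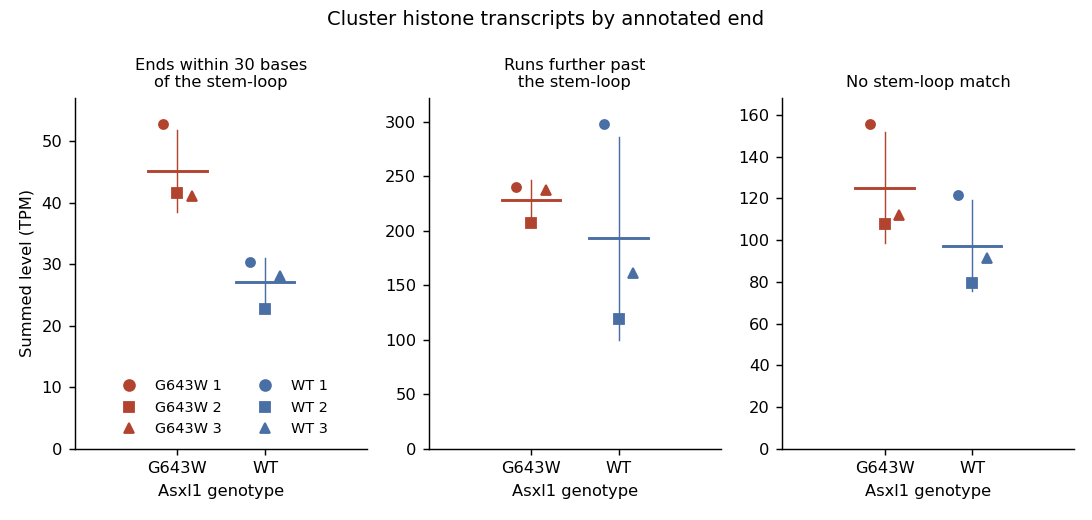
Summed TPM of cluster histone transcripts is plotted for transcripts annotated to end within 30 bases of the stem-loop, to run further past it, or to hold no match, with 1 point per library, the mean and ± 1 SD (n = 3), each panel with its own axis from 0. In the left panel the 3 G643W points (41.0 to 52.8 TPM) lie above the 3 WT points (22.8 to 30.3 TPM). In the other panels the genotypes overlap through WT library 1 alone.

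The clusters differed in their medians, but the summed levels of Hist1 and Hist2 had similar ratios of means, G643W over WT. These were 1.28 for Hist1 and 1.23 for Hist2 in TPM, and 1.09 and 1.10 in CPM, with overlap in each. In Hist1, 43 of 51 tested genes (84.3%) had positive differences with a median of 0.55, against 49.2% positive among all tested genes, and 23 (45.1%) were higher without overlap in CPM, against 7.05%. In Hist2, 6 of 9 (66.7%) were positive with a median of 0.05, and 3 (33.3%) were higher without overlap, against the same shares of all genes. The Hist3 genes Hist3h2a and Hist3h2ba were both negative, and Hist4h4, the only Hist4 gene, was at 1.67, 0.944 and 1.27 TPM in G643W libraries 1 to 3 and at 1.06, 0.447 and 0.520 TPM in WT libraries 1 to 3, with overlap. H2A and H2B genes are often transcribed away from each other from a shared promoter region, and 12 such pairs had starts 176 to 306 bases apart. Of the 11 pairs with both genes tested, 8 had both differences positive, 3 had opposite signs and 0 had both negative. Since 13 of 17 H2A and 15 of 17 H2B genes were positive by themselves, these counts do not show that pairs moved together. In the pair of Hist1h2ak and Hist1h2bn, chosen as an example after the values were seen, Hist1h2ak was at 5.49, 3.96 and 3.53 TPM in G643W and at 2.94, 2.11 and 3.02 TPM in WT. Its partner Hist1h2bn was at 10.2, 7.55 and 9.30 TPM in G643W and at 3.50, 4.59 and 3.50 TPM in WT, so both lay higher in all G643W libraries. The pair of Hist1h2ac and Hist1h2bc, by contrast, had log2 differences of 1.23 for Hist1h2ac and -1.06 for Hist1h2bc, the second of which was -0.12 without WT library 1.

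Genes around histone supply did not separate the genotypes as a group. Of 16 listed genes for histone gene transcription and mRNA processing, 15 were found, 8 of them with positive and 7 with negative differences, and their summed level overlapped (310 to 348 TPM in G643W, 268 to 352 TPM in WT). Slbp, which encodes the protein that binds the stem-loop, was at 69.6, 66.0 and 69.0 TPM in G643W libraries 1 to 3 and at 43.2, 55.2 and 71.1 TPM in WT libraries 1 to 3, an overlap. Cpsf3, the nuclease subunit that cleaves pre-mRNA ends, was at 116, 74.5 and 68.8 TPM in G643W and at 95.1, 79.2 and 103 TPM in WT, also overlapping. Of 20 histone chaperone genes, 6 were positive and 14 negative with a median of -0.13, and 0 were higher without overlap in CPM. Daxx, a chaperone of H3.3 named here after its values were seen, was the only one lower without overlap in CPM, at 34.9, 38.8 and 34.4 CPM in G643W and 125, 42.3 and 45.9 CPM in WT. Among all tested genes, 49.2% were positive, and 7.05% were higher and 8.89% lower without overlap in CPM. Nap1l4, a chaperone of H2A and H2B, was at 213, 220.4 and 206.4 TPM in G643W and at 205.7, 192 and 178 TPM in WT, so it was higher without overlap in TPM but not in CPM. Its relative Nap1l1 was at 164, 100 and 134 TPM in G643W and at 150, 183 and 170 TPM in WT. With edgeR, 0 genes of these lists passed the adjusted threshold, against 0.121% of all tested genes. At an unadjusted p under 0.05 there were 0 as well, against 9.66%. DESeq2 called 0, where it called 428 of all 20654 tested genes. In lists this short, 0 calls past an adjusted threshold do not set them apart.

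Replication-independent histone variants, made also outside S phase from genes with ordinary poly(A) tails, had far higher measured levels here than the cluster genes. The labels do not say whether poly(A) RNA was selected, so levels of mRNAs with and without a tail cannot be compared firmly. The 11 listed variants summed to 3168, 3427 and 3241 TPM in G643W libraries 1 to 3 and to 2739.98, 2615 and 2545 TPM in WT libraries 1 to 3, without overlap. In CPM the sums overlapped, at 4019, 4224 and 3617 in G643W and 3855, 3933 and 3229 in WT. H3f3a, which encodes the H3.3 variant, was at 1289.5, 1645 and 1647 TPM in G643W and at 1158, 1135 and 1230.03 TPM in WT. H2afz, which encodes H2A.Z, was at 688, 904 and 735 TPM in G643W and at 489, 600 and 510 TPM in WT. Both were higher in all G643W libraries in TPM and overlapped in CPM. The variants differed in direction, with 6 positive and 5 negative, and 0 passed the edgeR threshold. At an unadjusted p under 0.05 there were 2 of the 11 (18.2%), against 9.66% of all tested genes. These 2, named after their values were seen, were Cenpa, the centromeric H3 variant, at 96.6, 134 and 97.8 TPM in G643W and 54.0, 75.4 and 46.3 TPM in WT, and H2afj, an H2A variant, at 50.7, 23.4 and 28.9 TPM in G643W and 86.1, 91.8 and 83.4 TPM in WT. The log2 difference of H2afj was -1.32 ± 0.28 (SE), with an edgeR adjusted p = 0.327 and a DESeq2 adjusted p = 0.00938, and that of Cenpa was 0.84 ± 0.32, with an edgeR adjusted p = 0.5004.

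S phase genes and mitosis genes stood differently beside the cluster histones. Of 24 S phase genes, 16 (66.7%) were positive with a median of 0.06, against 49.2% positive among all tested genes, and 0 were without overlap in CPM. They summed to 1487, 920.03 and 1121 TPM in G643W libraries 1 to 3 and to 679.8, 947 and 1352 TPM in WT libraries 1 to 3. Pcna, the sliding clamp of DNA replication, was at 242, 188 and 193 TPM in G643W and at 154, 162 and 142 TPM in WT, so it was higher without overlap in TPM alone. Mcm2, part of the replicative helicase, was at 171, 64.3 and 114 TPM in G643W and at 65.0, 107 and 176 TPM in WT. All 18 mitosis genes had positive differences, with a median of 1.03, and 15 were higher without overlap in CPM, against 7.05% of all tested genes. The mitosis genes summed to 763, 1021 and 839 TPM in G643W and to 375, 511 and 430 TPM in WT, without overlap, and 17 had an unadjusted p under 0.05, against 3.89% of all tested genes that were higher at that level, while 0 passed the adjusted edgeR threshold. DESeq2 called 4 of them higher, Bub1, Cenpe, Cenpf and Tpx2, whose products act at kinetochores or the spindle, where its share over all tested genes was 0.794%. Cdk1, the mitotic kinase, was at 189, 210 and 181 TPM in G643W and at 71.9, 134 and 109 TPM in WT, with a log2 difference of 0.75 ± 0.29 (SE) and an edgeR adjusted p = 0.503. Top2a, which untangles replicated chromosomes, was at 80.9, 91.1 and 84.9 TPM in G643W and at 39.2, 62.3 and 63.2 TPM in WT, with 0.71 ± 0.30 and an edgeR adjusted p = 0.511. The part of cell cycle differences in the cluster histone levels was not tested. In TPM, G643W library 1 was highest and WT library 1 lowest in the S phase sum, while in CPM WT library 3 was highest. All cluster genes together were at 449 TPM (455 CPM) in G643W library 1 and at 450 TPM (679 CPM) in WT library 1. Hist1h1c, Hist1h2bc and Hist1h2bg held 61.0% of the cluster histone reads in WT library 1, against 32.6% in G643W library 1.

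**Figure D5:**
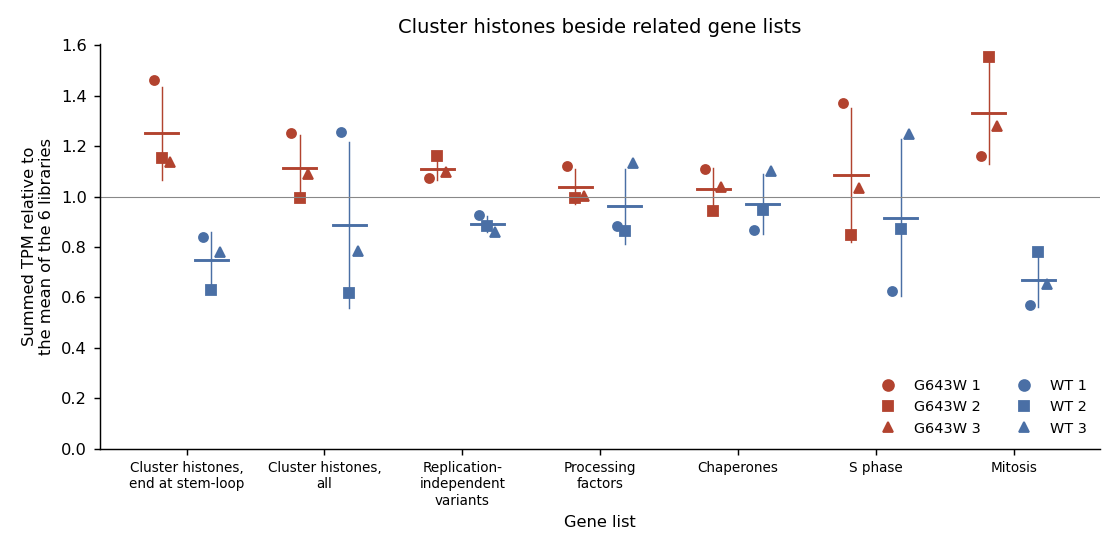
Summed TPM is plotted for the cluster histones and 5 related gene lists, each divided by its mean over the 6 libraries, with 1 point per library, a bar at the genotype mean and a line for ± 1 SD (n = 3). G643W points lie above WT points for the transcripts that end at the stem-loop, the replication-independent variants (in TPM alone) and the mitosis genes, and overlap WT points for the other lists.

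Markers of other cell types were read beside these results. Of the cell type lists, the erythroid sum alone did not overlap in TPM, at 12.2, 13.2 and 34.3 TPM in G643W libraries 1 to 3 and 7.41, 3.28 and 1.02 TPM in WT libraries 1 to 3, almost all of it from the globin genes Hbb-bs and Hba-a1. B cell markers summed to 8.97 to 16.1 TPM in G643W and 14.1 to 16.6 TPM in WT, and T cell markers to 2.31 to 12.7 TPM in G643W and 1.31 to 10.7 TPM in WT. Monocyte markers summed to 2649 to 3514 TPM in G643W and 2099 to 4003 TPM in WT. In CPM the monocyte sum was lower without overlap, at 2730.3 to 3666 in G643W and 4290.4 to 4720 in WT, and 6 of its 7 genes had negative differences with a median of -1.33. Of the 7, 4 had an unadjusted p under 0.05, all lower, where 1193 of the 20654 tested genes were lower at that level. Without overlap in CPM, 3 of the 7 were lower, against 8.89% of all tested genes. The T cell sum was also separated in CPM, by a narrow margin, at 8.304 to 15.3 in G643W and 1.56 to 8.302 in WT. No listed marker was at 0 in all 6 libraries. The part of these cells in the cluster histone levels was not tested.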

How the data were processed

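Estimated counts of reads per transcript and TPM were taken from the Salmon tables the authors deposited, 1 per library, as named per the file headers. Salmon 0.12.0 and bcl2fastq with builds mm10 and GRCm38.p6 are given per the submitters' processing notes. Not given in the sources used here are the Salmon options, the index, RNA selection and the use of strand. Of 136288 transcripts, 136176 carried GENCODE M21 identifiers and were summed over 53458 genes. The other 112, with 0.0365% of the reads of a library or less, were left out.

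Summed counts were rounded. Low genes were removed by filterByExpr with a minimum count of 10, TMM gave the scaling, and edgeR 4.0.16 in R 4.3.3 made the test (glmQLFit and glmQLFTest, genotype only, two-sided), with Benjamini-Hochberg adjustment over 20654 genes. Sums per class, cluster or transcript form have no test. Alternatives used DESeq2 1.42.0, limma 3.58.1, other scaling and filters, and each library left out.

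Counts of any pair of libraries in a group differed by more than sampling noise. The genes and lists were chosen with earlier results of these data known. Named per class were the 3 genes of highest mean TPM and the gene of lowest p, per list the 2 of highest mean TPM, and, among all with a mean of at least 1 TPM, the lowest and highest log2 difference. Precision was limited by variation between libraries, with a biological coefficient of variation of 52.8%. Shared words are 31-base runs of a gene's transcripts found in other genes.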

Additional observations from a re-analysis of the deposited data

How the results depend on the processing

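The number of cluster genes with a positive difference lay between 48 and 55 of 63 under all fits run, and was 52 of 67 without the low count filter. The medians of the H2A, H3 and H4 classes and all class and cluster sums other than H1 moved by less than the spread between libraries under the alternatives run. DESeq2 called 3 cluster genes higher, with log2 differences of 1.17 for Hist1h1b and 1.06 for Hist1h1e, and it called 4 mitosis genes higher and 1 histone variant lower, where edgeR called 0. With limma on log2(TPM + 1) the medians were 0.57 for H1, 0.59 for H2B and 0.052 for the chaperones, and with limma on log2(TPM + 0.1) the chaperone median was 0.054. Leaving out each library gave medians from 0.74 (without G643W library 1) to 1.05 (without WT library 1) for H1 and from -0.22 (without WT library 1) to 0.17 (without WT library 3) for the chaperones. The log2 ratio of the H1 sums was -0.02, between -0.34 (without WT library 2) and 0.82 (without WT library 1) with each library left out, and 1.10 without Hist1h1c or, as an alternative chosen after seeing the data, without Hist1h1c, Hist1h2bc and Hist1h2bg. In CPM the log2 ratio for transcripts with no stem-loop match was 0.042, against 0.36 in TPM. Single genes changed sign. Hist1h1c, which ranged from -0.66 to 0.58 with each library left out, became 0.58 without WT library 1, 0.017 with limma on log2(TPM + 1) and 0.024 on log2(TPM + 0.1). Hist2h2aa2 (range -0.13 to 0.39) became -0.13, -0.080 and -0.12 without G643W library 2, WT library 2 and WT library 3, and Hist1h2ap (range -0.22 to 0.29) became -0.22 and -0.15 without G643W library 2 and WT library 2. Hist1h2bg (range -0.18 to 0.99) became -0.18 without WT library 2. The cause of these shifts was not tested.

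The number of cluster genes higher without overlap, counted again after seeing the data, was 26 to 35 with each library left out, and 0 to 4 were lower. With fewer libraries more genes separate by construction, and the share of all tested genes that were higher was then 9.54% to 20.5%, reached without G643W library 1. Leaving out genes that share over 50% of their words with genes outside the set, or adding overlapping non-coding entries, left the class sums within the spread between libraries.

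Libraries are numbered within a genotype, and nothing says that equal numbers are paired. Deviations of equally numbered libraries from their group means correlated at 0.112, -0.165 and 0.176. Those of differently numbered libraries correlated at -0.284 to 0.228, so these values do not settle whether any libraries are paired. With the replicate number as a block, 0 cluster genes were called, and 0 of all genes were, against 25 without it.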
